A study of Mus musculus with 10 samples.

Results

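The amino acid transporter genes of mouse pancreatic islets were described across 10 poly(A) RNA-seq libraries. The members were every gene of the expression table whose symbol begins with Slc1a, Slc7a, Slc36a, Slc38a or Slc43a, together with Slc3a1 and Slc3a2. This rule, which uses names and no measured value, gave 45 genes of the 47340 in the table. Of these members, 3 carry a family name without being transporters (Slc7a6os, Slc36a1os and Slc36a3os). The rule takes in no carriers outside these families.

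The study asked what loss of FIT2, an endoplasmic reticulum protein needed for lipid droplet formation, does in insulin-secreting β cells. The 5 FL libraries came from male mice with floxed Fitm2 alleles, and the 5 KO libraries from βFIT2KO mice, which carry the same floxed alleles and a Cre recombinase driven by the rat insulin promoter (Tg(Ins2-cre)25Mgn). All mice were 12 weeks old, each library held the islets of 1 mouse, and the islets recovered overnight in culture before RNA was taken. The labels give the FL genotype as wild type and the titles give it as Flox; islets with Cre and intact Fitm2 were not analysed here, so Cre and the loss of Fitm2 cannot be told apart. Expression was given as FPKM, the fragments per kilobase of transcript and per unit of mapped reads, a depth-scaled measure that can be compared between genes because it is also scaled by length.

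Amino acids reach the β cell cytosol through carriers with overlapping substrates. Slc3a2 (CD98) is a heavy chain that brings several Slc7 light chains to the plasma membrane, where each light chain exchanges its own substrates, while the cationic carriers of the Slc7 family work without a heavy chain. Slc1 and Slc38 carriers use the sodium gradient to load cells with neutral amino acids or glutamate, Slc43 carriers let branched-chain and aromatic amino acids pass down their gradient, and Slc36 and some Slc38 proteins sit on lysosomes. In islets, arginine and other cationic amino acids depolarise β cells on entry, leucine and glutamine feed their metabolism, and amino acid supply controls mTORC1 and the ATF4 response.

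The targeted gene was checked first. Fitm2 (chr2:163466379-163472629 in mm10, minus strand) ran from 15.5 to 37.1 FPKM in the FL libraries with a median of 16.9, and from 4.30 to 9.13 FPKM in the KO libraries with a median of 7.75. No KO library reached the lowest FL library. Its log2 fold change was -1.58 (SE 0.28, limma adjusted p = 0.00228; two-sided exact permutation p = 0.00794, the smallest that 5 against 5 allows). Islets also hold cells other than β cells, in which this Cre is not directed to act. Summed FPKM lay between 646233 and 675470 in FL and between 627084 and 653292 in KO. The FPKM give no read counts, but the steps between low values put the depth of the other libraries at 1.41 to 2.41 times that of FL1, the shallowest. No pair of libraries was identical.

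Of the 45 members, 27 averaged 1 FPKM or more in either group and were tested among the 13065 genes that passed this filter. The test was limma on log2(FPKM + 1), and a gene was called at a Benjamini-Hochberg adjusted p of at most 0.05 over all genes tested. A log2 fold change here is the mean of log2(FPKM + 1) in KO minus that in FL, which understates the change of low genes. Of the tested members 10 were called, 6 lower and 4 higher in KO, where 25.5% of all tested genes were called, 16.5% lower and 9.05% higher. Calls were thus common across the transcriptome, and the count of members is to be read against that background. The median log2 fold change was -0.06 over the tested members and -0.06 over all tested genes. For 7 members the ranges of both groups were separate, 5 lower and 2 higher in KO, beside 19.1% of all tested genes (12.5% lower and 6.67% higher). Only Slc7a7 and Slc7a2 were called with a change of at least 1.5-fold on this scale, which 4.89% of all tested genes were.

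**Figure D1:**
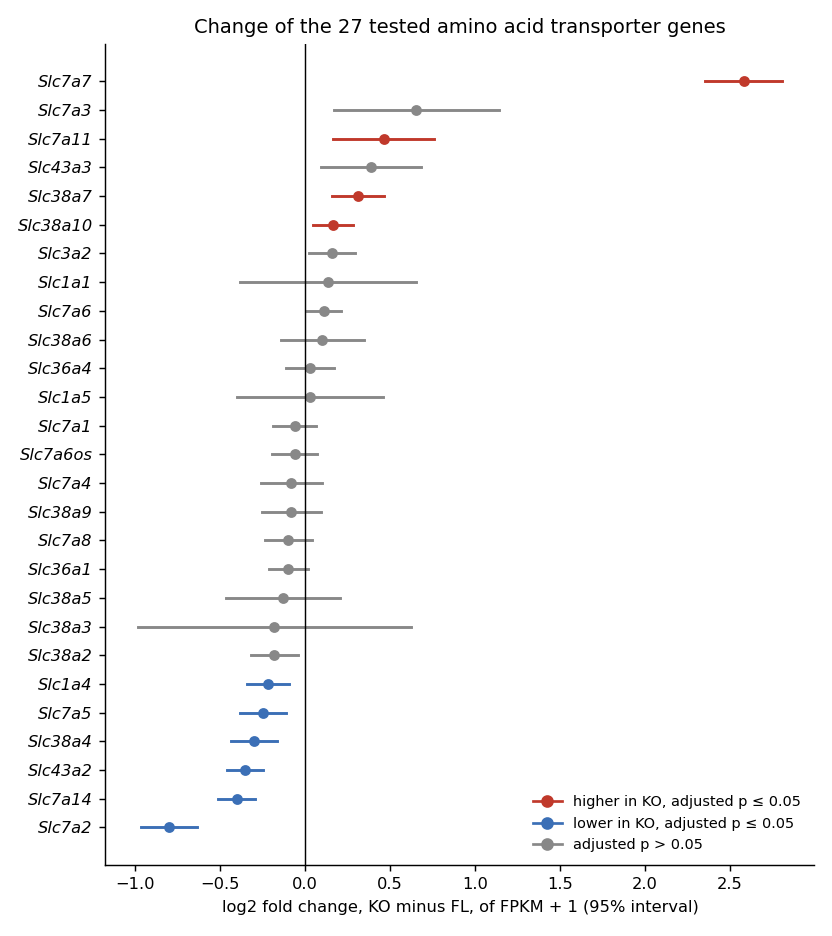
Log2 fold change (KO minus FL, of FPKM + 1) of the 27 tested members with 95% limma intervals; red marks genes called higher, blue genes called lower and grey genes not called. Slc7a7 stands at 2.58, away from every other member, and Slc7a2 is the lowest at -0.80.

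The plot of fold changes shows that members lay on both sides of 0, 15 below and 12 above. Levels spanned a wide range: 5 tested members averaged over 100 FPKM across the 10 libraries, 10 lay between 10 and 100 FPKM, and 12 averaged under 10 FPKM. The highest were Slc3a2, Slc38a10, Slc7a5, Slc38a4 and Slc7a14, in that order of mean. The other 18 members were not tested. Among them 6 were listed at 0 in all libraries (Slc7a9, Slc7a12, Slc7a15, Slc36a3, Slc36a1os and Slc36a3os), and 12 were above 0 in at least 1 library but stayed under the filter, with no group mean over 0.437 FPKM and no single value over 0.703 FPKM. An exact 0 can be a failed estimate in this table, since the hormone genes Ins1, Ins2, Iapp and Gcg are also listed at 0 in all 10 libraries.

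Slc7a7 encodes y+LAT1, an Slc3a2 light chain that exports cationic amino acids such as arginine and lysine in exchange for neutral amino acids and sodium. It was measured at 1.75, 1.62, 1.87, 2.06 and 1.87 FPKM in FL1 to FL5 and at 16.7, 18.7, 18.3, 12.3 and 14.7 FPKM in KO1 to KO5. All 5 KO libraries were several times above the highest FL library, with KO4 the lowest of them. The mean rose from 1.84 ± 0.164 to 16.1 ± 2.64 FPKM (SD, n = 5 each), a ratio of 8.79. The log2 fold change of Slc7a7 was 2.58 (SE 0.10, 95% interval 2.36 to 2.81, limma adjusted p = 3.53e-08), and it lay between 2.53 and 3.12 under every alternative tried.

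Slc7a7 lies on chr14:54369442-54417780 (mm10, minus strand), and its exons overlap those of Oxa1l on the other strand, which encodes a mitochondrial inner membrane insertase. Whether reads were assigned by strand is not given in the sources used here. Oxa1l rose as well, from 23.5 ± 0.888 to 28.1 ± 0.986 FPKM (SD, n = 5 each), with a log2 fold change of 0.25 (limma adjusted p = 0.00186). The part of overlapping reads in either value was not tested.

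Slc7a7 is also known from macrophages, and leukocyte markers moved in the same direction. Of 6 macrophage and leukocyte markers 4 were tested and 2 rose, Lyz2 (lysozyme) with a log2 fold change of 0.90 (limma adjusted p = 0.000490) and Cd68 with 0.68 (limma adjusted p = 5.99e-05). Csf1r (adjusted p = 0.366) and Adgre1 (adjusted p = 0.101), the receptors that define tissue macrophages, did not pass the limma test, the pan-leukocyte gene Ptprc was at most 1.10 FPKM in any library, and the T cell gene Cd3e was near 0. The summed level of the 6 markers was 46.9 to 65.1 FPKM in FL and 85.7 to 96.9 FPKM in KO. Their part in the Slc7a7 difference was not tested. In RNA from whole islets, a change in the number of cells of a type and a change in RNA per cell cannot be told apart.

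**Figure D2:**
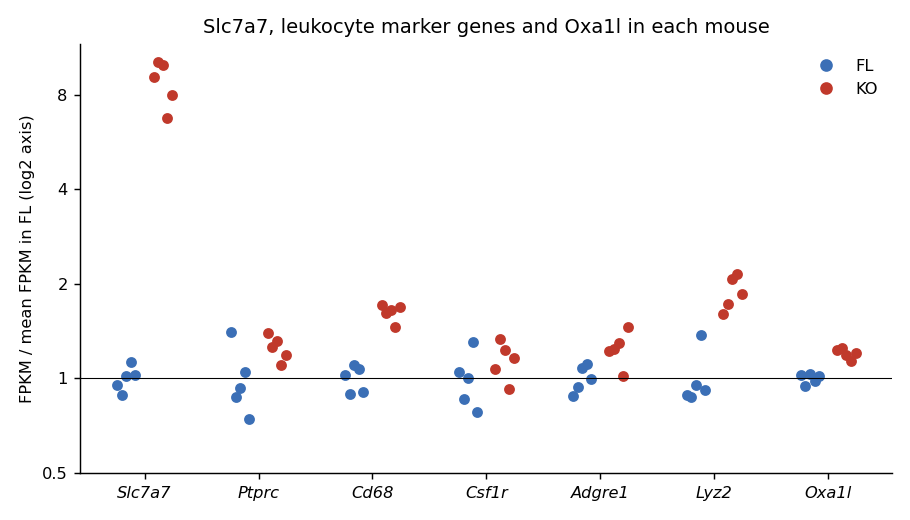
FPKM of Slc7a7, of 5 leukocyte markers and of Oxa1l in each mouse, divided by the gene's mean in FL, on a log2 axis; blue points are FL and red points KO. The KO points of Slc7a7 average 8.79 times the FL mean, while no KO point of the markers or of Oxa1l lies far above a doubling.

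Promoter sequences were read for the C/EBP-ATF response element, through which ATF4 and its partners act on amino acid carriers, and for the core of the antioxidant response element. RefSeq windows (GRCm38.p6) of 250 bases before to 50 bases after the start were found for 34 members, 20 of them tested. The windows of 3 tested members, Slc7a7, Slc7a11 and Slc1a4, hold TGATGNAAN on either strand, where 4.5% of the 27025 genes with a window do in at least 1 of their windows. They are printed from 150 bases before the start to 9 after it, on the gene's strand, with the matches in capitals, because these 3 members were called, Slc7a7 and Slc7a11 higher and Slc1a4 lower. The antioxidant core TGACNNNGC was in the windows of 4 tested members (Slc36a1, Slc38a2, Slc7a1 and Slc7a6, none called), where 14% of these genes hold it.
Slc7a7, chr14:54417935-54418094, minus strand: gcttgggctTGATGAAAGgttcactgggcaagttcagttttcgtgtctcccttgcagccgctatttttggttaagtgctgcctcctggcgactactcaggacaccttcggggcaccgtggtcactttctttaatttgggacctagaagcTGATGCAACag
Slc7a11, chr3:50443604-50443763, minus strand: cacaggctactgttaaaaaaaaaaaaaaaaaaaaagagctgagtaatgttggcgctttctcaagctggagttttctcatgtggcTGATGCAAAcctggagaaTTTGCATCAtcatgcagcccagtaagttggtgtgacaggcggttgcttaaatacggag
Slc1a4, chr11:20332704-20332863, minus strand: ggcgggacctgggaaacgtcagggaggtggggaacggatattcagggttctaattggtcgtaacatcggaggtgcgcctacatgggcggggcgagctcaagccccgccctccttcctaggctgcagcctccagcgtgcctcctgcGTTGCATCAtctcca

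The window of Slc7a11 holds 2 matches facing each other, their first bases 66 and 48 bases before the start. Slc1a4 has 1 match on the opposite strand, 5 bases before the start. Slc7a7 has several RefSeq starts, of which 2 have a match in their windows. In the window printed the matches lie 141 bases and 1 base before the start. That start is upstream of the first base of Slc7a7 in the GENCODE M21 gene annotation. The other of these starts is further downstream, and the second match lies 243 bases before it. The matched members thus include genes that rose and a gene that fell, and a match of these letters is a description of the sequence, not of binding. No window was given for Slc1a5, Slc38a3, Slc43a3, Slc7a2, Slc7a3, Slc7a4 and Slc7a5.

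Of the 6 light chains of Slc3a2, 5 were tested, of which 1 fell (Slc7a5) and 2 rose (Slc7a7 and Slc7a11). Slc7a5 (LAT1, chr8:121881150-121907694, minus strand), which takes up large neutral amino acids in exchange for glutamine, was measured at 174, 176, 192, 191 and 163 FPKM in FL1 to FL5. In KO1 to KO5 it stood at 144, 168, 149.6, 146 and 146 FPKM. KO2 was above the lowest FL library, so the groups overlapped by that 1 library. Slc7a5 fell by 0.25 on the log2 scale (SE 0.06, limma adjusted p = 0.0129), from 179 ± 12.3 to 151 ± 9.73 FPKM (SD, n = 5 each).

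Slc7a11 (xCT, chr3:49892526-50443614, minus strand) exchanges intracellular glutamate for cystine and so supplies cysteine for glutathione; its window holds the facing pair of matches. It was low throughout, at 1.34, 1.67, 1.26, 0.991 and 1.00 FPKM in FL1 to FL5 and 2.06, 2.12, 1.32, 2.35 and 2.78 FPKM in KO1 to KO5. Of the KO libraries 4 were above every FL library, and KO3 lay among the FL values. Its log2 fold change was 0.46 (SE 0.14, 95% interval 0.16 to 0.76, limma adjusted p = 0.0285). The call was lost with no filter on low values, with the replicate block, and without any of FL3, FL4, FL5, KO1, KO4 or KO5, while the log2 fold change stayed between 0.39 and 0.74 over all alternatives.

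Slc7a8 (LAT2), a broader neutral exchanger and the next most abundant light chain, was not called, with means of 74.4 ± 2.51 and 69.6 ± 6.62 FPKM in FL and KO (SD, n = 5 each; log2 fold change -0.10, limma adjusted p = 0.279). Slc7a6 (y+LAT2), which shares the substrates of Slc7a7, stood at 8.46 ± 0.383 and 9.20 ± 0.313 FPKM (SD, n = 5 each; log2 fold change 0.11, limma adjusted p = 0.105). It was called higher under the 3 rescalings of the libraries and with sample weights. The sixth light chain, Slc7a10, was under the filter.

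The heavy chain Slc3a2 (chr19:8706882-8723369, minus strand) had the highest level of all members. It was measured at 699.8, 743, 811, 721 and 789 FPKM in FL1 to FL5 and at 784, 829, 871, 926 and 791 FPKM in KO1 to KO5. The KO libraries were mostly higher, but KO1 and KO5 lay below FL3. The log2 fold change was 0.16 (SE 0.06, 95% interval 0.02 to 0.29, limma adjusted p = 0.0854), and Slc3a2 was called higher only when the libraries were rescaled by median ratio, to the same sum or by quantiles. Slc3a1, the heavy chain for cystine and cationic amino acid uptake in kidney, was measured at 0.322, 0.260, 0.339, 0.186 and 0.335 FPKM in FL1 to FL5 and 0.161, 0.246, 0.226, 0.354 and 0.255 FPKM in KO1 to KO5. These values overlapped and were under the filter. Both Slc3a1 light chains, Slc7a9 and Slc7a13, were at or near 0 as well.

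Seen as a pool, the 6 Slc3a2 light chains summed to 265 ± 14.6 and 248 ± 15.7 FPKM in FL and KO islets (SD, n = 5 each), with overlapping ranges of 248 to 281 and 235 to 270.1 FPKM. Its make-up by light chain was as follows. Slc7a5 held 67.5 ± 1.08% of the pool in FL and 60.8 ± 1.72% in KO, Slc7a8 held 28.1% in both, and Slc7a7 held 0.692 ± 0.0540% in FL and 6.49 ± 0.783% in KO. No KO library had a Slc7a7 share under 5.25% and no FL library one over 0.756%. Slc3a2 mRNA stood at 2.84 ± 0.225 times the summed light chain mRNA in FL and 3.40 ± 0.325 times in KO, again with overlapping ranges. These shares are sums over the members and were not tested.

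**Figure D3:**
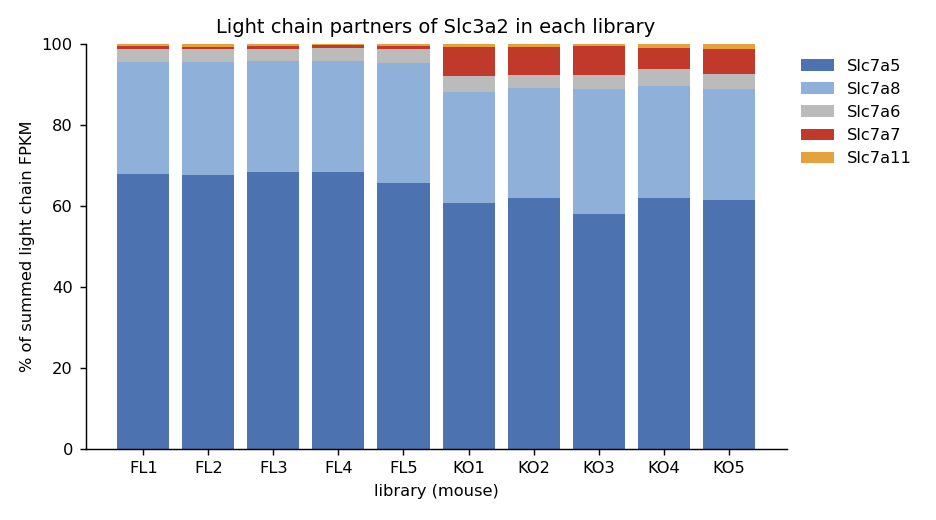
Share of the summed light chain FPKM held by each Slc3a2 light chain in each library, in percent; bars are stacked to 100, and Slc7a10 is at or near 0. The Slc7a7 band is at most 0.756% in FL1 to FL5 and from 5.25% to 7.08% in KO1 to KO5, and the Slc7a5 band is smaller in every KO library than in any FL library.

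Among the 5 cationic Slc7 genes, all tested, 2 fell and none was called higher. Slc7a2 (CAT2, chr8:40862396-40922308, plus strand) carries arginine, lysine and ornithine into cells. It was measured at 110.0, 118, 112, 122 and 108 FPKM in FL1 to FL5 and at 59.0, 67.0, 77.5, 60.5 and 62.1 FPKM in KO1 to KO5. Every KO library was well below every FL library. Its means were 114 ± 5.91 and 65.2 ± 7.51 FPKM in FL and KO (SD, n = 5 each), a ratio of 0.572, with a log2 fold change of -0.80 (SE 0.07, 95% interval -0.97 to -0.64, limma adjusted p = 2.77e-05).

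Slc7a14 (chr3:31202858-31310378, minus strand), a lysosomal relative of the cationic carriers, was measured at 113, 122, 113, 121 and 110.0 FPKM in FL1 to FL5 and at 86.4, 88.4, 92.6, 87.7 and 80.8 FPKM in KO1 to KO5. The groups did not overlap. It fell by 0.40 on the log2 scale (SE 0.05, limma adjusted p = 0.000209).

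Slc7a1 (CAT1), the widely expressed cationic carrier, averaged 26.3 ± 2.28 and 25.1 ± 0.459 FPKM in FL and KO islets (SD, n = 5 each), with a log2 fold change of -0.06, a 95% interval of -0.19 to 0.06 and a limma adjusted p of 0.465. Slc7a4, for which no cationic transport has been shown, was not called either (log2 fold change -0.08, limma adjusted p = 0.504). Slc7a3 (CAT3) missed the threshold narrowly: it was measured at 2.88, 4.42, 4.22, 2.41 and 2.10 FPKM in FL1 to FL5 and 4.69, 3.24, 5.33, 7.21 and 7.92 FPKM in KO1 to KO5. Of the KO libraries 4 were above every FL library and KO2 was not. The log2 fold change of Slc7a3 was 0.65 (SE 0.22, 95% interval 0.17 to 1.14, limma adjusted p = 0.0501), and 8 of the 21 alternatives called it higher.

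The arginine carriers Slc7a1, Slc7a2 and Slc7a3 together summed to 144 ± 7.50 FPKM in FL, with a range of 134 to 153, and to 96.0 ± 7.28 FPKM in KO (SD, n = 5 each), with a range of 88.1 to 108. Slc7a2 held 79.5 ± 1.44% of this sum in FL and 67.8 ± 3.003% in KO. The share of Slc7a1 was 18.3 ± 1.15% in FL and 26.2 ± 1.80% in KO, and that of Slc7a3 was 2.22 ± 0.690% and 5.94 ± 2.06%. Summed mRNA of these carriers was lower in every KO library than in any FL library. Among them only Slc7a2 was called, and Slc7a1 and Slc7a3 were not. The sums were not tested.

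**Figure D4:**
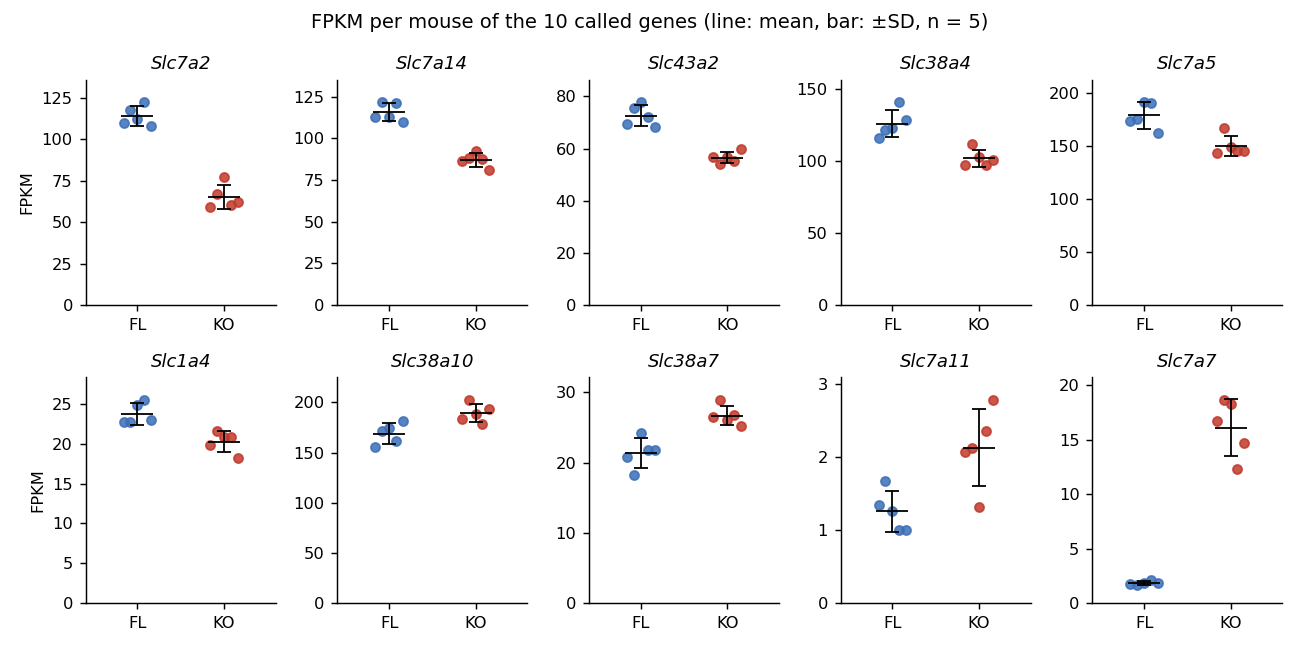
FPKM in each mouse of the 10 called members, with a linear axis from 0 in each panel; blue points are FL and red points KO, the horizontal line is the mean and the bar ± SD of 5 mice. Slc7a5, Slc38a10 and Slc7a11 are the panels in which FL and KO points overlap, and the other 7 are separated.

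The sodium-driven and facilitated carriers for neutral amino acids gave 3 further genes lower in KO, Slc43a2, Slc1a4 and Slc38a4. Slc43a2 (LAT4, chr11:75531694-75577575, plus strand), a uniporter for branched-chain and aromatic amino acids, was measured at 69.5, 75.5, 77.7, 72.1 and 68.1 FPKM in FL1 to FL5 and at 56.6, 54.2, 56.8, 55.4 and 59.7 FPKM in KO1 to KO5. The groups were separated, and its log2 fold change was -0.35 (SE 0.05, limma adjusted p = 0.000465). Its relative Slc43a3, known as a purine nucleobase carrier, was not called at 3.68 ± 0.562 and 5.18 ± 1.25 FPKM (SD, n = 5 each; log2 fold change 0.39, limma adjusted p = 0.0561), although 6 alternatives called it higher. Slc43a1 was under the filter.

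Slc1a4 (ASCT1, chr11:20302180-20332713, minus strand) carries alanine, serine, cysteine and threonine, and is the gene with a single match. It was measured at 22.7, 22.8, 25.0, 25.6 and 23.0 FPKM in FL1 to FL5 and 19.9, 21.6, 20.9, 20.8 and 18.3 FPKM in KO1 to KO5. All KO libraries were below all FL libraries by a small margin, and the log2 fold change was -0.22 (SE 0.06, limma adjusted p = 0.0157). Slc1a5 (ASCT2), the glutamine exchanger of many proliferating cells, averaged 5.33 ± 0.593 and 5.75 ± 2.53 FPKM in FL and KO islets (SD, n = 5 each; limma adjusted p = 0.931). Its KO mean rests on KO5 at 10.1 FPKM, and without KO5 the log2 fold change went from 0.03 to -0.17.

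Of the 11 Slc38 members 8 were tested, of which 1 fell and 2 rose. Slc38a4 (SNAT4, chr15:96994820-97055956, minus strand), an imprinted gene for a sodium-coupled carrier of small neutral amino acids, was measured at 116, 122, 123, 141 and 129 FPKM in FL1 to FL5 and at 97.6, 112, 103, 97.4 and 101 FPKM in KO1 to KO5. The highest KO library, KO2, was still below the lowest FL library. Slc38a4 fell by 0.30 on the log2 scale (SE 0.06, limma adjusted p = 0.00459).

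Slc38a7 (SNAT7, chr8:95835920-95853539, minus strand) releases glutamine and asparagine from lysosomes. It was measured at 20.8, 18.2, 24.2, 21.8 and 21.8 FPKM in FL1 to FL5 and at 26.5, 28.9, 26.1, 26.7 and 25.2 FPKM in KO1 to KO5. Every KO library was above every FL library, with a log2 fold change of 0.31 (SE 0.07, limma adjusted p = 0.00785).

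Slc38a10 (chr11:120103960-120151346, minus strand), a less studied relative, was the most abundant of the family. In FL1 to FL5 it was measured at 156, 171, 175, 161 and 182 FPKM and in KO1 to KO5 at 184, 202, 188, 179 and 194 FPKM. KO4 lay below FL5, so the groups overlapped. Its log2 fold change was 0.16 (SE 0.05, 95% interval 0.04 to 0.28, limma adjusted p = 0.0468), and 13 of the 21 alternatives lost the call, among them the fits without FL1, FL2, FL3, FL4, KO1, KO2, KO3 or KO5. Over the alternatives the log2 fold change ran from 0.11 to 0.22 and the adjusted p from 0.00831 to 0.0998. The exons of Slc38a10 overlap those of Gm11769 on the other strand, a low transcript that was also called higher (log2 fold change 0.30, limma adjusted p = 0.0484).

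The other tested Slc38 genes were not called. Slc38a2 (SNAT2), the sodium-coupled carrier that cells induce when amino acids run short, averaged 41.5 ± 2.38 and 36.4 ± 2.84 FPKM in FL and KO islets (SD, n = 5 each; log2 fold change -0.18, limma adjusted p = 0.0541), and was called lower without FL1. Slc38a9, the lysosomal arginine sensor of mTORC1, was low at 1.27 ± 0.148 and 1.15 ± 0.0618 FPKM (SD, n = 5 each; limma adjusted p = 0.480). Slc38a6 had a limma adjusted p of 0.541 and the system N carrier Slc38a5 one of 0.574, with intervals of the log2 fold change of -0.14 to 0.34 and -0.46 to 0.21. Neither lysosomal Slc36 gene passed the test: Slc36a1 (PAT1) had a log2 fold change of -0.10 (limma adjusted p = 0.190) and Slc36a4 (PAT4) one of 0.03 (limma adjusted p = 0.778). The neighbour of Slc7a6, Slc7a6os, which is not a transporter, had a log2 fold change of -0.06 (limma adjusted p = 0.478).

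A few members varied widely between mice of the same group. The values of Slc38a3 moved with markers of acinar cells, the enzyme-secreting cells of the exocrine pancreas, and those of Slc1a1 moved against them. The summed level of 9 acinar markers (digestive enzymes and Ptf1a) ran from 3672 to 9217 FPKM in FL and from 2395 to 17576 FPKM in KO, with KO5 highest and FL1 and FL2 next. None of the 8 tested acinar markers was called. Slc38a3 (SNAT3), a glutamine carrier that the exocrine pancreas also expresses, was measured at 3.26, 2.65, 1.61, 1.20 and 1.14 FPKM in FL1 to FL5 and at 0.948, 0.618, 0.755, 1.81 and 5.54 FPKM in KO1 to KO5. KO5, FL1 and FL2 were highest in both measures. The log2 fold change of Slc38a3 was -0.18 with a 95% interval of -0.99 to 0.62 (limma adjusted p = 0.754). Slc1a1 (EAAC1), the only tested glutamate carrier of the Slc1 family and a carrier of cysteine, ran the other way, at 0.770, 1.07, 1.66, 2.07 and 2.54 FPKM in FL1 to FL5 and 1.75, 2.94, 2.56, 1.24 and 0.944 FPKM in KO1 to KO5. Its lowest values were those of FL1, KO5 and FL2, and it was not called (log2 fold change 0.13, limma adjusted p = 0.718). Slc7a11, which was called higher, had its highest FL values in FL2 and FL1 (1.67 and 1.34 FPKM) and its highest KO values in KO5 and KO4 (2.78 and 2.35 FPKM). These libraries had the highest acinar sums of their groups. KO2, with the lowest acinar sum at 2395 FPKM, was at 2.12 FPKM of Slc7a11. The part of acinar RNA in these values was not tested. Without KO5, 8 members were called, the same 6 lower and 2 higher, with Slc38a10 and Slc7a11 lost.

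**Figure D5:**
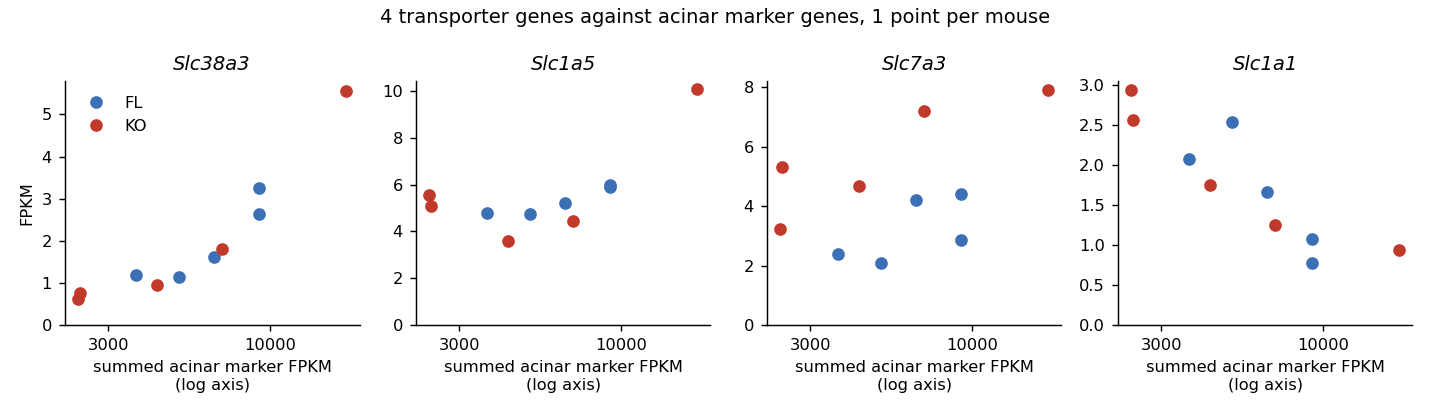
FPKM of Slc38a3, Slc1a5, Slc7a3 and Slc1a1 in each mouse against the summed FPKM of 9 acinar markers on a log axis; blue points are FL and red points KO. KO5, at 17576 FPKM of acinar markers, has the highest Slc38a3, Slc1a5 and Slc7a3 values. The other libraries follow the acinar sum for Slc38a3 and run against it for Slc1a1. For Slc7a3 they do not follow it across the groups (2.88 FPKM in FL1 at an acinar sum of 9217, 5.33 in KO3 at 2435). Within KO, however, Slc7a3 is highest in KO5 and KO4 (7.92 and 7.21 FPKM) and lowest in KO2 (3.24 FPKM). Slc1a5 does not follow the sum within KO (4.43 FPKM in KO4 at 7008, 5.56 in KO2 at 2395). Within FL, it is higher in FL1 and FL2 (5.91 and 5.99 FPKM) than in FL4 and FL5 (4.79 and 4.75 FPKM), whose sums are lowest.

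Markers of other islet cells also differed between the groups. Of 10 β cell markers 7 were tested and 6 fell, with a summed level of 2273 to 2844 FPKM in FL and 1511 to 2124 FPKM in KO, and the hormone genes Ins1, Ins2 and Iapp are listed at 0. All 5 stellate and fibroblast markers rose, with sums of 11.7 to 20.1 FPKM in FL and 24.1 to 32.7 FPKM in KO, and 3 of 5 endothelial markers rose, with sums of 107 to 124 FPKM and 128 to 173 FPKM. Some markers of other endocrine cells were lower too. Of 7 tested α cell markers 2 fell (Irx1 and Ttr), with sums of 512 to 741 FPKM in FL and 365 to 502 FPKM in KO, and of 4 tested δ cell markers only Sst fell, from 4976 ± 318 to 4091 ± 537 FPKM (SD, n = 5 each; log2 fold change -0.29, limma adjusted p = 0.0303). Most of the α sum was Ttr, at 400 to 605 FPKM in FL and 250 to 389 FPKM in KO. The values of every other tested α cell marker overlapped between the groups. Sums of β and of α cell markers were lower in every KO library than in any FL library, as were Slc7a2, Slc7a14, Slc43a2, Slc38a4 and Slc1a4. The paper reported that islets of βFIT2KO and floxed mice had no discernible difference in composition. The part of cell composition in the fall of these 5 members was not tested.

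Other genes of amino acid handling were counted from lists fixed alongside the members, and each count stands beside the 16.5% of all tested genes called lower and the 9.05% called higher. Of 7 tested genes in a list of other amino acid carriers, mainly of the plasma membrane, 3 fell and 2 were called higher. Slc6a8, the creatine carrier, rose from 26.2 ± 3.12 to 50.4 ± 4.76 FPKM (SD, n = 5 each; log2 fold change 0.92, limma adjusted p = 3.04e-05), and Slc6a15, a carrier of branched-chain amino acids, stood at 0.484 ± 0.0915 and 1.72 ± 0.406 FPKM in FL and KO (SD, n = 5 each; log2 fold change 0.86). Slc6a15 passed the filter only through KO, the group in which it is higher, so its call is no independent support. Slc6a17, a vesicular neutral amino acid carrier, fell by 0.38 on the log2 scale. Of 9 tested mitochondrial and vesicular carriers 3 fell, Slc25a29 (log2 fold change -0.51), which brings cationic amino acids into mitochondria, the branched-chain carrier Slc25a44 (-0.25) and the glutathione carrier Slc25a39 (-0.24). Of 7 further lysosomal carriers only Slc17a9, a vesicular nucleotide transporter, was called, with a log2 fold change of 0.71.

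Of 28 tested genes of amino acid sensing upstream of mTORC1, 4 fell and 2 rose, beside 16.5% and 9.05% of all tested genes. The largest changes were those of Gatsl2 (log2 fold change -0.32), Nprl3 (0.32) and the leucine sensor family gene Sesn1 (-0.28). Of 24 tested genes of the amino acid response through GCN2 and ATF4, 8 fell and 3 rose, beside 16.5% and 9.05% of all tested genes. The genes with the largest changes were Ddit3 (CHOP), with a log2 fold change of 0.75, Ppp1r15a (GADD34), with 0.43, and Mthfd2, a mitochondrial folate enzyme, with -0.43. Asparagine synthetase (Asns), a textbook target of ATF4 like Slc7a11 and Slc1a4, fell by 0.32 on the log2 scale (limma adjusted p = 0.00558); it is named for that role, after its values were seen. Of 20 tested cytosolic aminoacyl-tRNA synthetase genes 4 fell and 3 rose, beside the same shares, with the largest log2 fold changes in Mars (-0.51), Aars (-0.33) and Hars (0.32). The lists' medians were -0.25, -0.16, 0.09, -0.09, -0.12 and -0.05 in the order given, beside -0.06 over all tested genes. Neither these counts nor the medians were tested against other genes.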

How the data were processed

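Islet poly(A) RNA of 5 FL and 5 KO mice was sequenced as stranded single-end 75-base libraries. The authors aligned reads with STAR 2.5.2a to mm10 (GRCm38) and deposited FPKM values normalised across libraries by Cuffnorm 2.2.1, as the submitters' processing notes name them; the annotation release and the use of strand in counting are not given in the sources used here. FPKM hold no read counts, so count tests and counting intervals could not be used.

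From these values, log2(FPKM + 1) was fitted by limma 3.58.1 (R 4.3.3) with an intensity trend, FL against KO, over the 13065 genes that averaged 1 FPKM or more in either group, with Benjamini-Hochberg adjustment over all of them. P-values measure the spread between mice. Summaries used Python 3.11.15 and scipy 1.17.1. All tested members are named, in full where called, non-overlapping, among the 5 highest by mean, or a heavy chain; of the other lists, called genes are counted and the 3 largest changes named. The members and lists were chosen with earlier results of these data known. Alternatives were 2 pseudocounts, 2 filters, 3 rescalings, 4 changes of model, leaving out each library, and 2 stricter call rules. Loci and exon overlaps are those of the GENCODE M21 gene annotation, since the deposited table holds no positions. Of the 45 members 30 have the same versioned identifier in that release.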

Additional observations from a re-analysis of the deposited data

Results flagged for a closer look

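Among the tested members and Fitm2, 56 groups of 5 libraries were examined for a library far from the rest (gap to the nearest library over the whole range above 0.71), and 3 had one, where chance gives about 1 in 20 groups. In KO, the Slc7a5 value of KO2, 168 FPKM, stood above the other 4 libraries at 144 to 149.6 FPKM (gap over range 0.765). In FL, Slc36a4 was at 13.6 FPKM in FL4 and at 10.8 to 11.2 FPKM in the other 4 libraries (gap over range 0.840). In KO, Slc38a3 was at 5.54 FPKM in KO5 and at 0.618 to 1.81 FPKM in the other 4 libraries (gap over range 0.757), and KO5 also had the highest summed level of acinar markers, 17576 FPKM; their part in this value was not tested.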

How the results depend on the processing

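Single-gene values were recomputed under 21 alternatives, or 20 for Slc38a6, Slc38a3, Slc1a1, Slc7a11 and Slc38a9, which the filter at 5 FPKM left out. Of the 10 called members 8 were called under all of them, and 12 uncalled members were called under none. Of 562 single-gene values under alternatives, 514 kept direction and call, 21 lost the call, 22 gained one and 5 turned direction. The direction turned only for uncalled genes: Slc38a5 went to 0.0018 (log2 fold change) without FL4, and Slc1a5 to -0.15 with sample weights, -0.0026 without FL4, -0.0047 without FL5 and -0.17 without KO5. Leaving out 1 library at a time, Slc38a5 ran from -0.22 to 0.0018 and Slc1a5 from -0.17 to 0.15. A stricter adjusted p of at most 0.01 left 6 members and 1666 of all tested genes called, and requiring a 1.5-fold change left 2 members and 639 genes. With each library left out in turn, 8 to 10 members and 2545 to 3427 genes were called. Fitm2 stayed lower in KO, between -1.72 and -1.39.

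Scaling changed the split of calls over all tested genes: 2150 lower and 1183 higher as deposited (64.5% lower), 1516 and 1625 after median-ratio rescaling (48.3% lower), 1530 and 1390 after rescaling to the same sum (52.4% lower), and 1708 and 1494 after quantile normalisation (53.3% lower). Under these 3 scalings the same 10 members stayed called, 6 lower in each, and 7, 8 and 6 were higher. With the replicate number as a block, 1494 genes were called lower and 874 higher; 9 members were called, with Slc38a10 and Slc7a11 lost and Slc43a3 gained. The numbers do not pair the mice: same-numbered deviations correlated between -0.10 and 0.003, and 0 of 10 libraries correlated best with their own number. The depth of each library in reads is unknown, which limits what can be said of members near 1 FPKM.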
